A study of Mus musculus with 6 samples.

Results

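The major urinary protein (Mup) genes are a family of closely related genes on mouse chromosome 4, and 10 of them were followed here in the livers of ethanol-fed mice: Mup1, Mup2, Mup3, Mup7, Mup16, Mup17, Mup18, Mup20, Mup21 and Mup22. They were taken by symbol from the 54532 genes of the deposited count table, and they were chosen because some of them were known to differ between the groups of this study. The difference between the groups is therefore described for them and not tested. Gene-level RNA counts were available for 6 whole livers, 3 of knockout mice (LysMcre/+ Cd44flox/flox) and 3 of control littermates (LysM+/+ Cd44flox/flox), all on C57BL/6J/Rj. Every mouse, controls included, carried the floxed Cd44 alleles and drank a Lieber-DeCarli liquid diet containing 6% ethanol by volume for 10 days. A single gavage of ethanol at 5 g per kg followed on day 11, and the animals were killed 9 hours later. Cre in the knockouts sits in Lyz2, the lysozyme gene of myeloid cells, whereas the Mup genes are known as genes of hepatocytes. No mice with Cre alone and no mice without ethanol were analysed here, so the effects of Cre, of the altered Lyz2 allele and of Cd44 loss cannot be told apart. The labels give neither the age nor the sex of the mice.

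Major urinary proteins are small lipocalins, barrel-shaped carriers that hydrophobic molecules fit into. Hepatocytes secrete them into the blood, the kidney passes them into the urine, and there they bind and slowly release volatile pheromones. In mice their transcription is known to depend on growth hormone, androgens, thyroid hormone and glucocorticoids, and adult males usually make more of them than females.

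The copies are so alike that the sequence decides how far each count can be read. In the coding sequence, 7 members (Mup1, Mup2, Mup7, Mup16, Mup17, Mup18 and Mup22) were 98.71% to 99.82% identical to each other, which is 1 to 7 differing bases in each of the 21 pairs. Mup20, which encodes the male pheromone darcin, shared 90.61% to 91.53% of its coding bases with those 7. Mup3 and Mup21 formed a pair of their own, 95.42% identical to each other and 84.2% to 85.4% identical to the 7. The same stretch of 60 coding bases is given for 4 members to show these distances, read from the GENCODE M21 transcripts of GRCm38, with capitals for bases that differ from Mup22. Mup22 was the highest of the 7 near-identical copies in knockout livers, Mup17 was the next highest of them, Mup3 was the highest of all members there, and Mup20 was the highest in control livers.
Mup22: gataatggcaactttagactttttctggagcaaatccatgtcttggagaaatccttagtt
Mup17: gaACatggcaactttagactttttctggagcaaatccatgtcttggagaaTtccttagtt
Mup20: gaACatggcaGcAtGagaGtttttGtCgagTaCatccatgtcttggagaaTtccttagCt
Mup3: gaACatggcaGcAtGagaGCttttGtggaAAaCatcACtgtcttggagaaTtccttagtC
In this stretch Mup17 differs from Mup22 at 3 bases, Mup20 at 12 and Mup3 at 15. Mup1, Mup2, Mup7, Mup16 and Mup18 each differ from Mup22 there at the same 1 base, and Mup21 has the same 60 bases as Mup3.

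Fragments of 150 bases make the limit concrete. Every 150-base window of the Mup3 and Mup21 transcripts occurred in no other annotated gene. The share of such windows was 68.9% for Mup20, 59.6% for Mup17, 47.5% for Mup1, 32.9% for Mup7, 29.7% for Mup2, 24.2% for Mup16, 13.7% for Mup18 and 0% for Mup22. Mup22 shared 91.8% of its windows with Mup10, a gene outside the 10 members. No window of a member was found in a gene outside the Mup family, and no member overlapped another annotated gene. The counts of Mup3 and Mup21 can thus be read as those of single genes. The counts of the other members depend, to differing extents, on how the authors' counting divided shared reads. The sources used here do not give that. The sum over the family does not depend on how reads were divided among its genes, but reads dropped for mapping to several places would be missing from it and reads counted at each place would be counted repeatedly. The sum over the 10 members leaves out Mup10 and the other Mup genes that share windows with them.

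**Figure D1:**
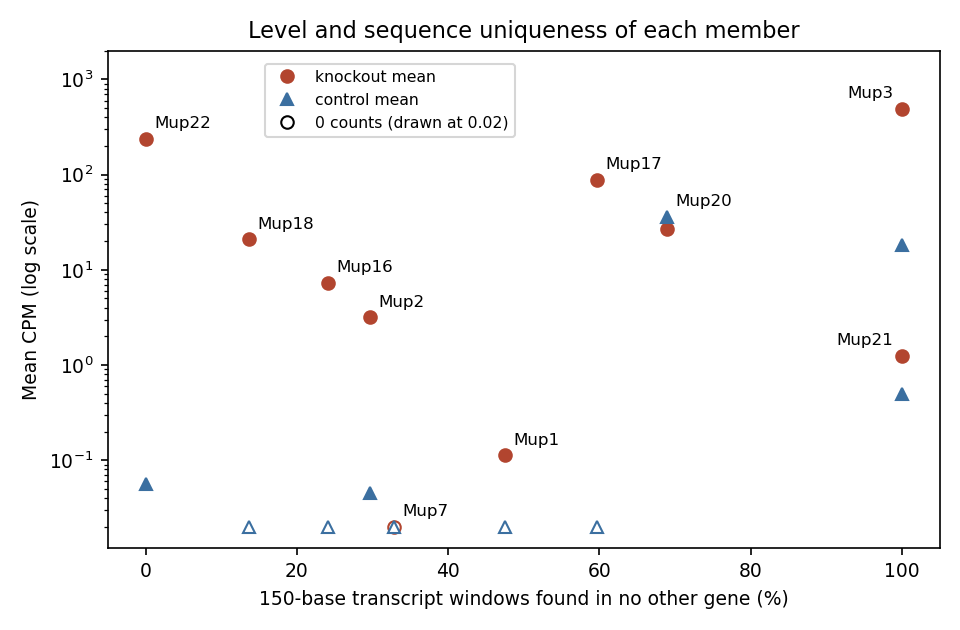
Mean level of each member (CPM, counts scaled to library size, log scale) against the share of 150-base windows of its transcripts that occur in no other annotated gene; circles are knockout means, triangles control means (n = 3 livers each), and open symbols mark 0 counts. Mup3, with 100% of its windows its own, had the highest mean in knockout livers, and Mup22, with 0%, came next.

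Promoter sequence split the members in the same way. RefSeq (GRCm38.p6) promoters matched 6 members, Mup2, Mup3, Mup7, Mup17, Mup18 and Mup21, and over aligned bases Mup2 and Mup17 were 99.32% identical, Mup3 and Mup21 93.88%, and Mup17 and Mup3 87.65%. The 250 bases before the annotated start are given for Mup17, one of the near-identical copies, and for the pair Mup3 and Mup21, whose levels in knockout livers lay far apart. Capitals mark bases with no identical partner when aligned to Mup17. All 3 lie on the minus strand and are written 5′ to 3′ in the direction of transcription, and their annotated starts are not in register, so part of the capitals at the ends comes from that offset.
Mup17, chr4:61595833-61596082: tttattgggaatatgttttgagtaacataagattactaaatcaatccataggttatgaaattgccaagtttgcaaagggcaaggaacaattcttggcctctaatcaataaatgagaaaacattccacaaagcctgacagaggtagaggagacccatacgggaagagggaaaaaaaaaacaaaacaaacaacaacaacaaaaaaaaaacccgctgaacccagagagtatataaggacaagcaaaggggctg
Mup3, chr4:62087318-62087567: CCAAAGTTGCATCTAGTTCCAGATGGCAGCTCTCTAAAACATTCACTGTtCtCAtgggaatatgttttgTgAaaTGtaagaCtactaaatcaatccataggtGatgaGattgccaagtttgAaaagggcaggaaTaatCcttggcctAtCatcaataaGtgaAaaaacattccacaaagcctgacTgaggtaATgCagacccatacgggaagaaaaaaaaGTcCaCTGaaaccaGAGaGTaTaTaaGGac
Mup21, chr4:62150842-62151091: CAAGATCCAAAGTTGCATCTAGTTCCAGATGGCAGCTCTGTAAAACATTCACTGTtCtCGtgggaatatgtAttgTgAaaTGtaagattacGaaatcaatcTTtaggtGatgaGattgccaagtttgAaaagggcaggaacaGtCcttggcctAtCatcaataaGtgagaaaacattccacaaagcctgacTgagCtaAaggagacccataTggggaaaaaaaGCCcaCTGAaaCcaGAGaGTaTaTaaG
The 6 windows, each with 50 bases after the start added, were searched on both strands for TTCNNNGAA (the core bound by STAT5), TATAAA, TTGCNNCAA (the core bound by C/EBP factors) and the full palindromic glucocorticoid response element. None of the 4 motifs occurs in any of the 6 windows. Over all 32851 promoters in the RefSeq table TTCNNNGAA was present in 8.3% of windows, TATAAA in 13.62%, TTGCNNCAA in 2.08% and the response element in 0.01%. That result says only that these exact letters are not in these windows.

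Summed over the 10 members, Mup RNA was 16.0-fold higher in knockout livers than in control livers. The summed counts were 10346, 30329 and 13717 in the knockout livers, against 998, 1085 and 1654 in the control livers. In counts per 1000000 (CPM) on library sizes scaled by TMM, edgeR's trimmed mean, the sums were 496.0, 1459 and 676 CPM in knockout livers and 39.6, 52.5 and 71.9 CPM in control livers. The lowest knockout liver lay well above the highest control liver, and knockout liver 2 was the highest of its group. The means were 877 ± 512 CPM in knockout livers and 54.7 ± 16.3 CPM in control livers (SD, n = 3 each). Without knockout liver 2 the fold was 10.8. As a share of all counts, the members took 0.0788 ± 0.0419% in knockout livers and 0.00595 ± 0.00167% in control livers (SD, n = 3 each). Per 1000 counts of Alb, the albumin gene that hepatocytes also express, they had 6.0, 15.1 and 9.34 counts in knockout livers, against 0.752, 0.894 and 1.19 in control livers, a 10.7-fold ratio of means. In whole tissue, more cells of a type and more RNA per cell cannot be told apart.

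Of the 10 members, 8 passed the filter on low counts, and Mup1 and Mup7 did not. Of those 8, 5 (Mup2, Mup16, Mup17, Mup18 and Mup22) had at most 3 counts in any control liver and so passed through the knockout livers only. In edgeR's quasi-likelihood fit over all 14758 genes that passed, 6 members were called higher in knockout livers at a Benjamini-Hochberg adjusted p under 0.05, 0 were called lower and 2 were not called. Over all genes 25.0% were called, 11.9% higher and 13.1% lower. The 6 called members were also those whose groups did not overlap, and 21.4% of all genes had every knockout liver above every control liver, or 43.8% counting both directions. Because the members were chosen on this contrast, nothing is read from these counts.

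**Figure D2:**
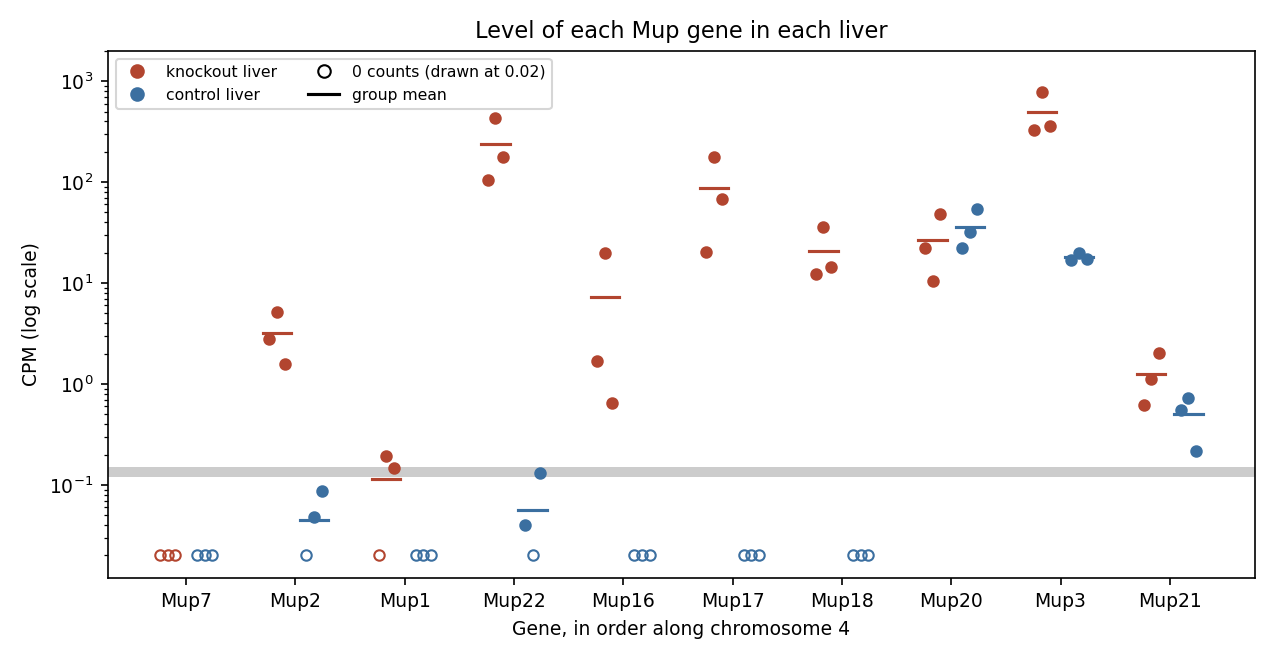
CPM of each member in each liver on a log scale, knockout livers left of control livers, with genes in their order along chromosome 4; horizontal lines are group means (n = 3), open circles are 0 counts drawn at 0.02, and the grey band is the level of 3 counts (0.12 to 0.15 CPM). For Mup2, Mup3, Mup16, Mup17, Mup18 and Mup22 all knockout livers lie above all control livers, while the groups overlap for Mup20 and Mup21.

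Mup3 (ENSMUSG00000066154, chromosome 4, 62083476 to 62087342, minus strand), the member whose count can be read most safely, had 331, 778 and 362 CPM in knockout livers, against 16.8, 19.97 and 17.2 CPM in control livers. Control livers were close together and knockout livers spread over more than a doubling, with no overlap. The means were 490 ± 249 CPM in knockout livers and 18 ± 1.72 CPM in control livers (SD, n = 3 each), a 27.2-fold ratio. Per kilobase of exon it stood at 459 ± 234 CPM per kb in knockout livers, above all other members, and at 16.9 ± 1.61 CPM per kb in control livers (SD, n = 3 each).

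Mup22 (ENSMUSG00000110439, chromosome 4, 60817589 to 60821463, minus strand) went with it in knockout livers and was nearly silent in control livers. It had 2189, 8986 and 3636 counts in knockout livers, against 1, 0 and 3 counts in control livers. The mean in knockout livers was 239 ± 172 CPM (SD, n = 3), and the mean in control livers, 0.0567 CPM, lay below the level of 3 counts. The ratio of counts scaled to library size was 4120, with a 95% exact interval of 1610 to 15100 that covers counting error only. The log2 ratio of mean CPM was 12.04, against 11.3 without knockout liver 2 and 13.58 without control liver 3. Since no 150-base window of its transcript is its own, these are best read as counts of Mup22 or a near-identical copy. Mup10, which shares most of its windows, had 3, 27 and 0 counts in knockout livers and 0, 0 and 1 in control livers.

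Mup17 (ENSMUSG00000096688, chromosome 4, 61591929 to 61595871, minus strand) had 426, 3669 and 1382 counts in knockout livers and 0 counts in every control liver. Knockout liver 2 was highest and knockout liver 1 lowest, at 177 and 20.4 CPM. The mean in knockout livers, 88.4 ± 80.0 CPM (SD, n = 3), was at least 672-fold higher than the level of 3 counts in each control liver, and the lowest knockout liver alone was at least 155-fold higher. Without knockout liver 2 the bound for the mean was at least 338-fold. Among the 7 near-identical copies, Mup17 had the largest share of 150-base windows of its own, 59.64% beside 47.47% for Mup1. With 100-base windows that order was reversed, at 40.58% for Mup17 and 44.32% for Mup1. The other windows of Mup17 occur in further Mup genes, so its counts carry the limit on shared reads too.

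Mup18 (ENSMUSG00000078674, chromosome 4, 61670177 to 61674136, minus strand) had 257, 747 and 291 counts in knockout livers, against 0 in every control liver. Its mean of 20.9 ± 13.1 CPM in knockout livers (SD, n = 3) was at least 159-fold higher than the limit set by 3 counts, or at least 102-fold without knockout liver 2. Mup16 (ENSMUSG00000078675, chromosome 4, 61515592 to 61519531, minus strand) had 35, 408 and 13 counts in knockout livers, against 0 in every control liver. Most of the Mup16 counts came from knockout liver 2, so that its bound of at least 55.6-fold higher for the mean compares with at least 4.87-fold for the lowest knockout liver and at least 8.85-fold for the mean without knockout liver 2. In the fit the Mup16 call was lost when any 1 control liver was left out.

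Mup2 (ENSMUSG00000078688, chromosome 4, 60135932 to 60154289, minus strand) was low in both groups, with 58, 108 and 32 counts in knockout livers and 0, 1 and 2 counts in control livers. The ratio of scaled counts was 73.4 (95% exact interval 24.7 to 359, counting error only), and the log2 ratio of mean CPM was 6.14, against 7.06 without control liver 3. Mup1 (ENSMUSG00000078683, chromosome 4, 60498012 to 60501960, minus strand) had 0, 4 and 3 counts in knockout livers and 0 in control livers, so no fold is given. Mup7 (ENSMUSG00000073842, chromosome 4, 60066469 to 60070475, minus strand) had 0 counts in all 6 livers, below the 0.12 to 0.15 CPM that 3 counts make. Reads that it shares with other copies may be missing from that count, so its RNA is not bounded by it. The near-identical copies thus ranged from no count to a mean of 239 CPM within the same knockout livers. Summed, the 7 near-identical copies had 142, 670 and 264 CPM in knockout livers, against 0.0397, 0.0484 and 0.217 CPM in control livers.

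Mup20, the darcin gene (ENSMUSG00000078672, chromosome 4, 62050234 to 62054158, minus strand), had overlapping groups. It had 22.2, 10.4 and 47.9 CPM in knockout livers and 22.2, 31.7 and 54.3 CPM in control livers. The means were 26.8 ± 19.1 CPM in knockout livers and 36.1 ± 16.5 CPM in control livers (SD, n = 3 each), with a ratio of 0.744. Knockout liver 2, the highest for Mup3, Mup22, Mup17, Mup18, Mup16 and Mup2, was the lowest for Mup20. The ratio was 0.454 without knockout liver 3 and 1.01 without control liver 3, so no direction is given. Mup20 shared 31.07% of its 150-base windows with the pseudogene Mup-ps19, so its counts also carry the limit on shared reads. Mup21 (ENSMUSG00000066153, chromosome 4, 62147932 to 62150863, minus strand) had 0.623, 1.11 and 2.02 CPM in knockout livers, against 0.556, 0.725 and 0.217 CPM in control livers. Those groups overlapped too, and with 5 to 41 counts in a library the depth leaves wide counting error. Mup21 lies next to Mup3 on the chromosome and is its closest relative by sequence, yet in knockout livers it stood at 1.85 ± 1.05 CPM per kb where Mup3 stood at 459 ± 234 CPM per kb (SD, n = 3 each).

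The make-up of the Mup RNA also differed between the groups. Mup3 made up 57.9 ± 7.68% of the members' counts in knockout livers and 34.8 ± 9.65% in control livers, while Mup20 made up 4.09 ± 3.2% in knockout livers and 64.0 ± 10.1% in control livers (SD, n = 3 each). The 7 near-identical copies together held 37.9 ± 8.68% in knockout livers and 0.165 ± 0.119% in control livers (SD, n = 3 each). Of the members' counts, Mup3 and Mup20 together held 98.8 ± 0.511% in control livers and 62.0 ± 8.67% in knockout livers (SD, n = 3 each). Over all 49 Mup rows control livers had 4337 counts. Of those, 600 lay outside the members, most of them at the pseudogene Mup-ps19 (474). Mup3 counts per Mup20 count were 14.9, 74.5 and 7.57 in knockout livers, against 0.755, 0.63 and 0.317 in control livers, with no overlap. Among the knockout livers the proportions of the copies were less variable than their amounts for some pairs only. Mup18 counts per Mup22 count were 0.117, 0.0831 and 0.08, whereas Mup16 counts per Mup22 count were 0.016, 0.0454 and 0.00358. Mup22 counts per Mup3 count were 0.317, 0.556 and 0.495 in the same livers.

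**Figure D3:**
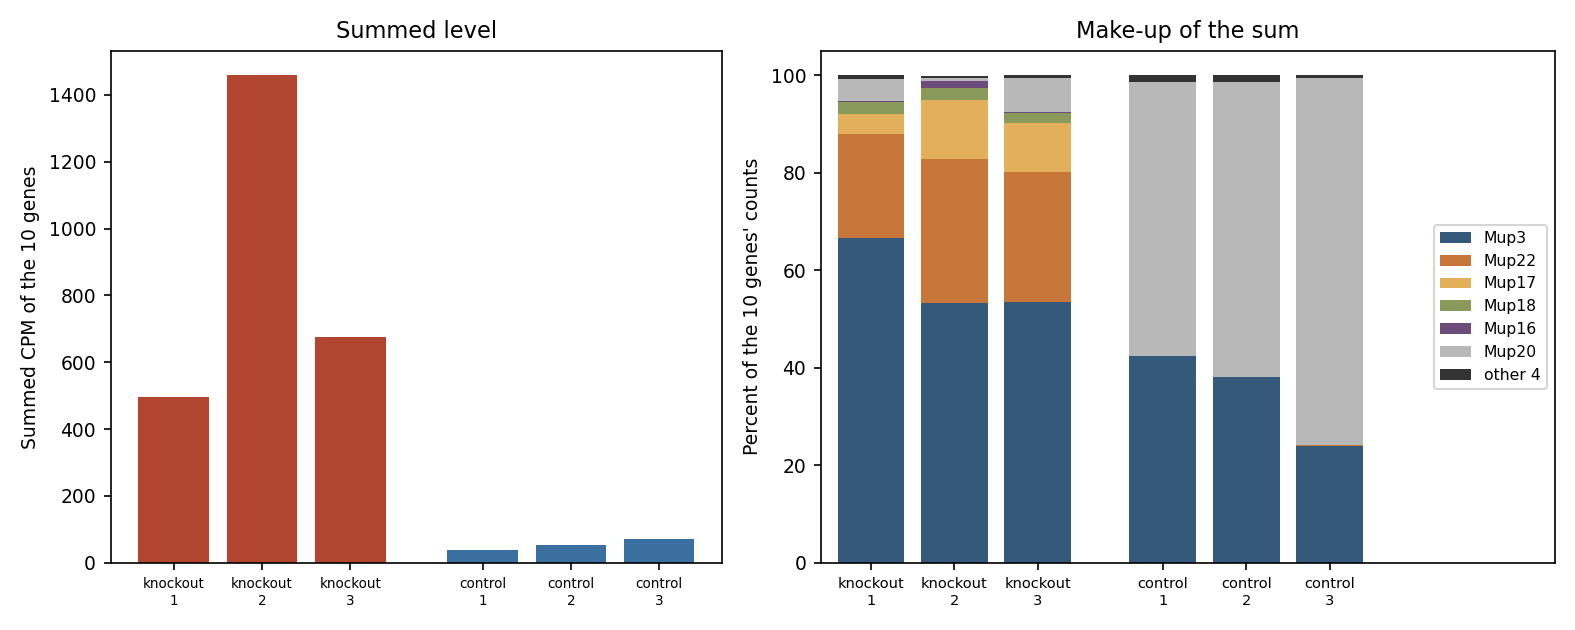
Left, summed CPM of the 10 members in each liver; right, the share of each member in that sum (percent of the members' counts), with knockout livers left of control livers. The sum lies between 496.0 and 1459 CPM in knockout livers and between 39.6 and 71.9 CPM in control livers, and Mup20 holds 4.09% of the counts on average in knockout livers, against 64.0% in control livers.

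By mean level per kilobase of exon the order in knockout livers was Mup3 (459 CPM per kb), Mup22 (277), Mup17 (95.3), Mup20 (28.9), Mup18 (22.4), Mup16 (7.05), Mup2 (2.38), Mup21 (1.85) and Mup1 (0.0716), with Mup7 at 0. Within each knockout liver Mup3 stood above Mup22 and Mup22 above Mup17. The ranges of neighbours in the order overlapped over the 3 knockout livers, except those of Mup21 and Mup1. In control livers the order was Mup20 (38.9 CPM per kb), Mup3 (16.9), Mup21 (0.738), Mup22 (0.0659) and Mup2 (0.0338), with the others at 0. Mup22 and Mup2 could not be ordered there at this depth.

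The 10 members span 2084 kb of chromosome 4 (60066469 to 62150863, GRCm38), and all lie on the minus strand. The members with the highest levels in knockout livers were not neighbours: Mup22 lies in the left part of the cluster, Mup17 further right, and Mup3 at its right end between Mup20 and Mup21.

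**Figure D4:**
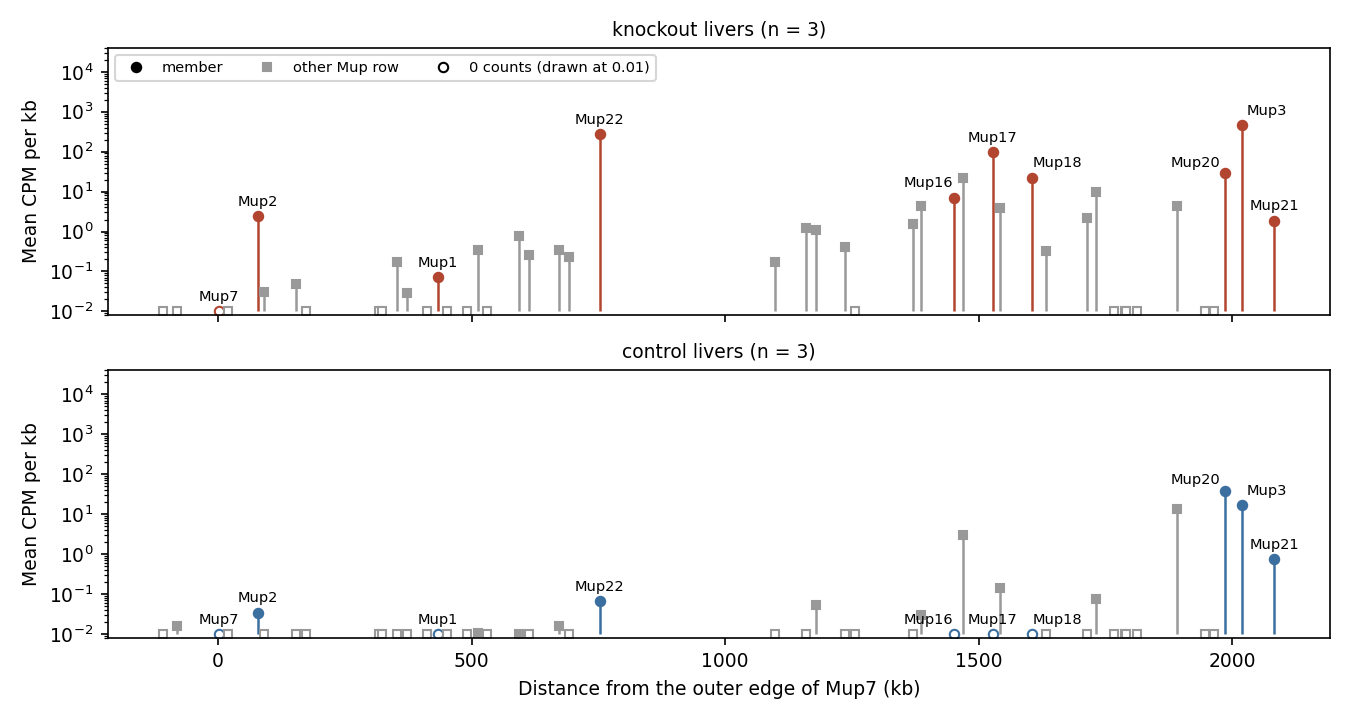
Mean CPM per kilobase of exon of every annotated Mup gene on chromosome 4 by distance from the outer edge of Mup7 (kb), in knockout livers (top) and control livers (bottom), n = 3 each, log scale; circles are the 10 members, squares the other Mup genes, open symbols 0 counts. In control livers the signal sits mainly at the right end with Mup20 and Mup3, and in knockout livers it also appears at Mup22 and from Mup16 to Mup18.

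The table held 39 further Mup rows, 12 protein-coding and 27 pseudogenes, and 22 of them had at least 1 count. Of the 8 that passed the filter on low counts, 7 were called higher in knockout livers and 0 lower in the edgeR fit, beside 11.9% higher and 13.1% lower over all genes. They were the coding genes Mup11, Mup13 and Mup15 and the pseudogenes Mup-ps12, Mup-ps13, Mup-ps14 and Mup-ps16. All but Mup-ps13 had at most 3 counts in any control liver and so passed the filter through the knockout livers only, so nothing is read from that count, and the limit on shared reads holds for them too. Mup15 had 12, 63 and 14 counts in knockout livers and 0 in every control liver. Its promoter window had the same bases as that of Mup17 over all 297 aligned positions. Mup-ps13, the only one of the 7 with counts well above the limit in each control liver, had 291, 263 and 194 counts in knockout livers, against 20, 46 and 45 in control livers, a 7.27-fold ratio of mean CPM (edgeR adjusted p = 0.00121). Knockout liver 1 had the most counts of Mup-ps12, Mup-ps13, Mup-ps14 and Mup-ps16. Mup19 had 6, 23 and 114 counts in knockout livers and 0 in control livers, with its highest value in knockout liver 3. Mup-ps19 had 9, 130 and 6 counts in knockout livers and 5, 39 and 430 in control livers, and it did not pass the test (edgeR adjusted p = 0.444). It shared 65.41% of its 150-base windows with Mup20, so some of its counts may be reads of Mup20. The other 13 rows with counts held at most 27 counts in any liver. They were Mup6, Mup8, Mup9, Mup10, Mup12, Mup14, Mup-ps2, Mup-ps4, Mup-ps7, Mup-ps8, Mup-ps9, Mup-ps10 and Mup-ps15. Summed, the coding rows outside the members had 54, 237 and 193 counts in knockout livers, against 0, 1 and 3 in control livers, a small amount beside the members' sums.

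Genes around the cluster were compared to see whether the difference reached beyond it. No other protein-coding gene that passed the filter lies inside the span. Of the 10 nearest on each side, reaching 1154 kb to the left and 358.3 kb to the right, 4 rose, 0 fell and 16 did not pass, beside 25.0% of all genes called, with a median log2 fold change of -0.12 beside -0.01 over all genes. Those that rose were Hdhd3, Slc31a1, Alad and Dnajc25, of which Alad and Dnajc25 did not pass when counts were scaled by library totals. Hdhd3, a gene of the haloacid dehalogenase family, was the furthest changed, at 17.6, 18.7 and 20.4 CPM in knockout livers, against 5.36, 7.88 and 8.65 CPM in control livers (log2 1.37, SE 0.19, edgeR adjusted p = 0.002). Slc31a1, the copper importer CTR1, had 189, 212 and 207 CPM in knockout livers, against 118, 113 and 149 CPM in control livers (log2 0.68, SE 0.13, edgeR adjusted p = 0.00894). The nearest gene on each side, Zfp37 at 38.68 kb and Snx30 at 161.7 kb, did not pass, and Zfp37 stood below 1 CPM in every liver.

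Regulators of Mup transcription and genes of growth hormone signalling, some of them its targets, were examined next as 1 list of 30 genes. It also covers nuclear receptors and hepatocyte transcription factors. All 30 were tested, 15 rose, 2 fell and 13 did not pass, beside 11.9% higher and 13.1% lower over all genes, and the median log2 fold change was 0.58 beside -0.01 over all genes. Growth hormone binds its receptor GHR, which works through the kinase JAK2 and the transcription factor STAT5B. Ghr had 340, 292 and 326 CPM in knockout livers, against 102, 121 and 138 CPM in control livers (log2 1.41, SE 0.14, edgeR adjusted p = 0.000755). Igfals, the carrier subunit of circulating IGF1 and a growth hormone target, had 104, 126 and 122 CPM in knockout livers, against 30.1, 30.7 and 35.1 CPM in control livers (log2 1.88, SE 0.13, edgeR adjusted p = 0.000179). Prlr, the prolactin receptor, was also higher, at 232, 278 and 208 CPM in knockout livers, against 59.9, 85.9 and 88.1 CPM in control livers (log2 1.62, SE 0.18, edgeR adjusted p = 0.00104). In each of these genes the knockout livers lay close together and above all control livers.

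Unlike most of the Mup copies, none of Ghr, Igfals and Prlr was highest by a wide margin in knockout liver 2. The genes of this list that fell were Jak2, with a log2 fold change of -0.53 (SE 0.13, edgeR adjusted p = 0.0223), and Cebpb, with -0.92 (SE 0.25, edgeR adjusted p = 0.0274). Each of those calls was lost in 4 of the fits that left out 1 liver. The next genes, Stat5b, Socs2, Cish and Igf1, were picked after their values were seen, because they encode parts or targets of growth hormone signalling. Stat5b had 58.1, 61.6 and 59.98 CPM in knockout livers, against 51.1, 43.7 and 42.2 CPM in control livers (log2 0.39, edgeR adjusted p = 0.0372), a call that did not hold in 8 alternatives. Socs2 (log2 0.59, edgeR adjusted p = 0.21) and Cish (log2 0.96, edgeR adjusted p = 0.104), feedback inhibitors that growth hormone induces, did not pass, and their groups overlapped. Igf1, another target, did pass (log2 0.88, SE 0.15, edgeR adjusted p = 0.00425). It had 437, 460 and 536 CPM in knockout livers, against 296.5, 250 and 230 CPM in control livers.

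Genes whose level in mouse liver differs between the sexes are, like the Mup genes, known targets of growth hormone. Xist, the RNA of the inactive X chromosome, was abundant in all 6 livers, at 485, 676 and 525 CPM in knockout livers and 354, 419 and 429 CPM in control livers. The Y-linked genes Ddx3y, Kdm5d, Eif2s3y and Uty had 0 counts in every liver. Both groups therefore had the RNA pattern of female tissue in these 5 genes, and no library stood apart.

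Of 30 female-biased liver genes 28 were tested, of which 18 rose and 0 fell, beside 11.9% higher and 13.1% lower over all genes, with a median log2 fold change of 2.09 beside -0.01. Sult2a1, a sulfotransferase of steroids and bile acids, had 342, 331 and 263 CPM in knockout livers, against 27.5, 27.7 and 24.7 CPM in control livers (log2 3.55, SE 0.15, edgeR adjusted p = 3.5e-05). Cyp2b13, a cytochrome P450, had 269, 390 and 205 CPM in knockout livers, against 20.7, 17.3 and 12.6 CPM in control livers (log2 4.09, SE 0.29, edgeR adjusted p = 0.000185). Slc22a26, an organic anion transporter family gene, had 136, 183 and 109 CPM in knockout livers, against 25.5, 24.5 and 23.0 CPM in control livers (log2 2.55, SE 0.19, edgeR adjusted p = 0.000249). Sult2a3 had 27.2, 14.1 and 27.1 CPM in knockout livers, against 0.199, 0.145 and 0 CPM in control livers, and it passed the filter on low counts through the knockout livers only.

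Of 25 male-biased liver genes 18 were tested, of which 4 rose and 2 fell, with a median log2 fold change of 0.49 beside -0.01 over all genes. That is 33.3% called, near the 25.0% over all genes. Those that rose were Ugt2b1, Cyp7b1, Nudt7 and Fitm1, and those that fell were C6 and Selenbp2. The Fitm1 call was lost in 7 alternatives and the Selenbp2 call in 4. Ugt2b1, a glucuronosyltransferase, had 211, 191 and 248 CPM in knockout livers, against 64.9, 91.0 and 61.3 CPM in control livers (log2 1.58, SE 0.18, edgeR adjusted p = 0.00105). C6, a component of complement, had 21.0, 16.6 and 23.5 CPM in knockout livers, against 35.0, 37.2 and 38.7 CPM in control livers (log2 -0.86, SE 0.14, edgeR adjusted p = 0.00444). The difference between the female-biased and the male-biased list was not tested, and overlap between neighbouring Cyp and Sult copies in the counting carries the same limit as for the Mup genes.

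**Figure D5:**
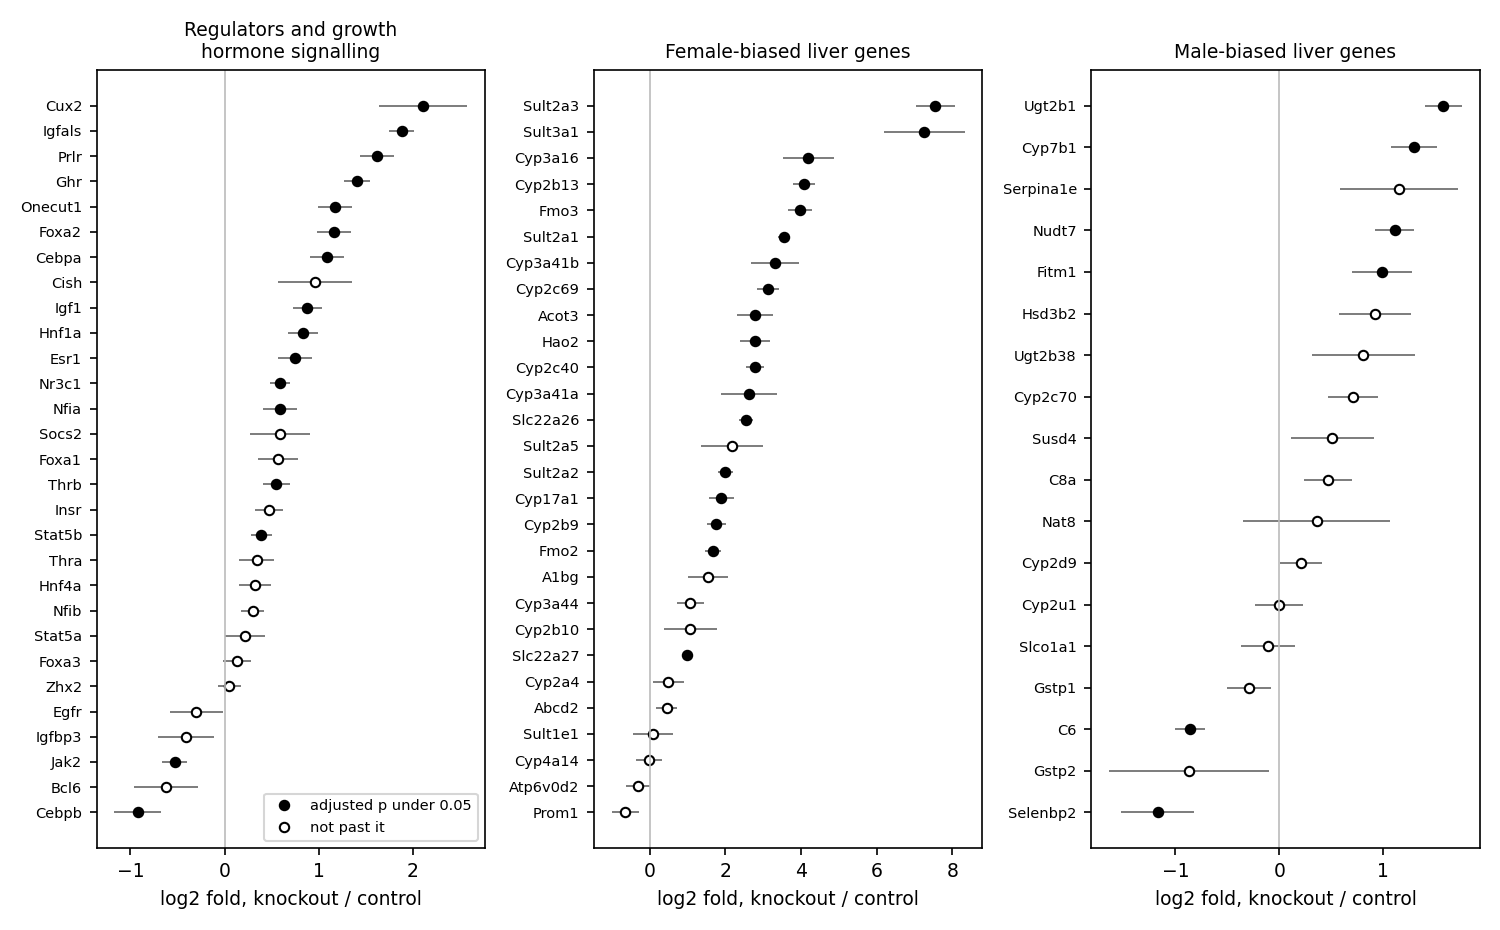
Fitted log2 fold change (knockout over control) with its standard error for the tested genes of 3 lists (1 gene of the first list not shown). The lists are regulators of Mup transcription and growth hormone signalling (left), female-biased (middle) and male-biased liver genes (right). Filled points passed an edgeR adjusted p under 0.05. Of 28 female-biased genes 18 are filled, all to the right of 0, against 4 to the right and 2 to the left among 18 male-biased genes.

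The Mup genes belong to the lipocalins and their relatives, and other genes of that group differed in both directions in these livers. The 18 listed names stood for 17 genes, because Lcn13 and Obp2a matched the same gene, and 10 were tested. Of those, 4 rose (Ptgds, C8g, Fabp1 and Orm3), 1 fell (Lcn2) and 5 did not pass, beside 11.9% higher and 13.1% lower over all genes. C8g, the lipocalin chain of complement component C8, had 228, 290 and 252 CPM in knockout livers, against 103, 106 and 117 CPM in control livers (log2 1.24, SE 0.13, edgeR adjusted p = 0.000812). Ptgds, a lipocalin that makes prostaglandin D, had 2.64, 3.61 and 5.18 CPM in knockout livers, against 0.159, 0.145 and 0.217 CPM in control livers, and it passed the filter on low counts through the knockout livers only. Lcn2, an acute-phase lipocalin that binds bacterial siderophores, ran the other way, at 88.0, 370 and 217 CPM in knockout livers, against 1430, 842 and 1368 CPM in control livers (log2 -2.43, SE 0.47, edgeR adjusted p = 0.00784).

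Outside the Mup family, the genes whose profile over the 6 livers was most like that of the summed members were Slc22a7, Esrrg, C730036E19Rik, Gm29920, Ugt3a1 and Ces3b. Likeness was the root-mean-square difference of log2 CPM, centred on each gene's mean, and it was 0.33 for Slc22a7 and at most 0.48 for the 6, beside a median of 2.02 over the 13112 genes compared. Slc22a7, an organic anion transporter of hepatocytes, had 29.2, 57.5 and 23.9 CPM in knockout livers, against 2.38, 2.52 and 4.52 CPM in control livers. Ces3b, a carboxylesterase, had 80.9, 146 and 55.1 CPM in knockout livers, against 6.39, 5.17 and 4.65 CPM in control livers. In both of them, as in the summed members, knockout liver 2 was the highest. They were picked for their likeness over these same livers, so nothing is read from that.

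Library totals ran from 21521174 to 24042917 counts in knockout livers and from 18428224 to 23126828 in control livers. Cd44, the deleted gene, had 2.11, 1.92 and 3.01 CPM in knockout livers, against 32.6, 34.8 and 26.4 CPM in control livers. Markers of hepatocytes, the cells that make major urinary proteins, were present in all livers, with none at 0. Of these 12 markers 6 rose and 0 fell, beside 11.9% higher and 13.1% lower over all genes. Their summed level was 105300 to 143600 CPM in knockout livers and 79180 to 93650 CPM in control livers. Alb itself had 82640, 96510 and 72350 CPM in knockout livers, against 52690, 58710 and 60300 CPM in control livers (edgeR adjusted p = 0.131), and knockout liver 2 was the highest for it as for the summed Mup genes. Of 12 myeloid markers 0 rose and 10 fell, beside 11.9% higher and 13.1% lower over all genes, and none was at 0. Their summed level was 172 to 347 CPM in knockout livers and 662 to 734 CPM in control livers. Lyz2, where Cre sits in the knockouts, is among the 12. In its level, and in its part of the sum, an effect of the altered allele cannot be told apart. The part of either set of markers in the difference of the Mup genes was not tested. Of 6 endothelial markers and 5 cholangiocyte markers none passed. Of 6 stellate cell markers 2 fell, which is 33.3% called, near the 25.0% over all genes. Scaling by library totals in place of TMM lowered the median log2 fold change of all genes by 0.25, and calls then split into 904 higher and 3698 lower, against 1751 higher and 1933 lower with TMM. The summed Mup fold was 13.2 under that scaling.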

How the data were processed

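The authors deposited raw read counts per Ensembl gene, 1 column per liver, and the submitters' processing notes list, with no role for any of them, featureCounts 1.5.0-p3, HISAT2 2.0.5, StringTie 1.3.3b and the build GRCm38.p6. Per the labels' protocols, RNA was selected with poly-T beads and primed with random hexamers. Strandedness, the handling of multi-mapping reads and the release of the annotation are not given in the sources used here.

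Of 54532 identifiers, 54495 matched GENCODE M21 (GRCm38). Counts passed filterByExpr (by group), were scaled by TMM and were fitted over all genes with no covariate by edgeR 4.0.16 (quasi-likelihood, R 4.3.3), and p-values were adjusted by Benjamini-Hochberg. Every adjusted p comes from that test. With 3 mice in each group, p-values measure the spread between these livers. The test steps were tested on simulated counts. A limit of 3 counts in each library stands in for groups with 0 counts. Folds of single members are ratios of mean CPM. Library totals (18428224 to 24042917 counts) make 3 counts 0.12 to 0.15 CPM. Replicates of a group differed by more than counting error (chi-square divided by its degrees of freedom was 27.2 or more).

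Coding sequences and transcript windows came from GENCODE M21, promoters from RefSeq (GRCm38.p6), and Biopython 1.88 aligned them. Near-identical copies are those at least 98% identical to Mup22.

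The members and the gene lists were chosen with earlier results of these data known. Named genes were all members, all Mup rows with a count, up to 4 genes of each list by smallest p among those that passed, genes that complete a count of 5 or fewer, Cd44, and the 6 genes most like the summed members (prior count 2, mean of at least 1 CPM). A gene that the rule names is not reported here. Alternatives were DESeq2 1.42.0, limma-voom (limma 3.58.1), RLE size factors, library totals, no filter, at least 50 counts in 3 libraries, the 20 most abundant genes left out, Mup genes left out of the scaling, the mouse number as a block, and each liver left out. Figures were drawn with matplotlib 3.10.9.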

Additional observations from a re-analysis of the deposited data

How the results depend on the processing

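The summed members kept their direction in every alternative run, at 10.8- to 19.6-fold with 1 liver left out, 13.2-fold by library totals and 14.3-fold over all 49 Mup rows. The members called higher stayed at 6, except 5 without any 1 control liver and 4 with at least 50 counts in 3 libraries. Leaving out 1 liver gave 2275 to 3413 called genes beside 3684, with 2275 without control liver 2 and 2296 without knockout liver 1. In those fits the genes of the list of regulators and growth hormone signalling that rose numbered 11 to 16, beside 15, and those that fell 0 to 2. The male-biased genes that fell numbered 1 to 2, the female-biased genes that fell 0 to 1, the flanking genes that rose 2 to 4 and those that fell 0 to 1. With no filter 8 male-biased genes rose, beside 4. By library totals 11 genes of the list of regulators and growth hormone signalling rose, beside 15. The flanking genes that rose numbered 2 by library totals, and those that fell 3 by library totals and 1 by DESeq2 and with no filter. The causes were not tested. No called result changed sign.

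Of single members, without knockout liver 2 the log2 fold of Mup16 against the limit of 3 counts was 3.14, that of Mup17 8.4 and that of Mup18 6.67, while the log2 fold of Mup3 was 4.27 and that of Mup22 11.3. Without control liver 3 it was 13.58 for Mup22 and 7.06 for Mup2. Levels of Mup1, Mup7 and, in control livers, of Mup2 and Mup22 are limited by depth.

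Same-numbered livers did not deviate together: the correlations of their deviations were -0.025, 0.047 and -0.019. The mouse numbers come from the sample titles, so pairing by litter or batch cannot be read from them. With the number as a block, 3086 genes were called.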
